A study of Mus musculus with 12 samples.

Results

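Iron regulation in the liver was followed through 10 genes: the hepcidin genes Hamp and Hamp2, the transferrin receptors Tfrc and Tfr2, transferrin (Trf), the ferritin chains Fth1 and Ftl1, ferroportin (Slc40a1), and the signalling ligands Bmp2 and Bmp6. The genes were chosen by name, for their roles in iron balance, and all 10 of them were found among the 32285 genes of the single-nucleus RNA matrices. That choice was made with earlier results of these data known. For each gene the spliced, unspliced and ambiguous unique molecular identifiers (UMIs, each the mark of 1 captured RNA molecule) were added and expressed as counts per 1000000 UMIs (CPM) of a cell type in a sample. The study asked how hepatocytes change between the liver and the culture dish. The liver of each of 8 mice gave 3 samples: a piece of liver cut off once the blood had been flushed out (Liver, L), the cells freed by collagenase perfusion (Cell Suspension, CS), and the hepatocytes after 24 hours on collagen in low-serum medium with dexamethasone and insulin (Primary Hepatocytes, PH). The mice were wild type, untreated, male and chow-fed, between 10 and 12 weeks of age. Their strain is C57BL/6NTac in the methods and C57BL6J in the labels. The nuclei of 4 samples at a time were hashtagged and mixed, which made 6 pools, of which pools 1 and 6 held no PH and pools 3 and 4 held no L, so differences between pools and between L and PH can be told apart only in part. For 2 of the L samples fewer nuclei were sorted into the pool.

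Hepcidin is a peptide hormone that hepatocytes secrete; it binds ferroportin, the cell's iron exporter, and brings about its degradation, which keeps iron inside macrophages, gut cells and hepatocytes. Its transcription is driven mainly by bone morphogenetic proteins (BMP2 and BMP6) released by liver sinusoidal endothelial cells, which act on hepatocyte receptors and SMAD proteins, and in inflammation by interleukin-6 through STAT3. Inside cells, iron regulatory proteins bind hairpins in mRNA, the iron-responsive elements: before the coding sequence they hold back translation, as in the ferritins and ferroportin, and after it they shield the mRNA from decay, as in the transferrin receptor.

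The hairpins are shown first because they set 4 of these genes apart from the other 6. The letters searched were a C, 5 bases, the loop CAGTGN and 5 bases that pair with the first 5 (G with U allowed) in the GENCODE vM21 transcripts of GRCm38. They were found before the coding sequence of Fth1, Ftl1 and Slc40a1, 1 each, and at 4 places after the coding sequence of Tfrc; of 21901 protein-coding genes, 294 (1.34%) held them anywhere in a transcript. No match in the other 6 genes says only that these letters are not there. Capitals mark the loop, and all 7 run 5′ to 3′ in the sense of the mRNA, written with T.
Fth1 (chr19:9982738-9982754, plus strand): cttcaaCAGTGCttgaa
Ftl1 (chr7:45459785-45459801, minus strand): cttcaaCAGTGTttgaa
Slc40a1 (chr1:45925471-45925487, minus strand): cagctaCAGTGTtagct
Tfrc, element 1 (chr16:32631225-32631241, plus strand): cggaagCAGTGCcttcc
Tfrc, element 2 (chr16:32631604-32631620, plus strand): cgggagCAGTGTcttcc
Tfrc, element 3 (chr16:32631669-32631685, plus strand): cggagaCAGTGAtctcc
Tfrc, element 4 (chr16:32631716-32631732, plus strand): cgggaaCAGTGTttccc

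The promoters of Hamp and Hamp2 are shown because the 2 hepcidin genes moved together and because the BMP and interleukin-6 routes are known to act there. Both are from RefSeq (GRCm38.p6) and hold the 250 bases before the transcription start; capitals mark matches, on either strand, to GGCGCC, the core of a BMP-responsive element, and to TTCNNNGAA, a STAT site. Hamp held GGCGCC at 109 to 104 and TTCTTGGAA at 97 to 89 bases before its start, whereas Hamp2 held only TTCTTGGAA, at 94 to 86 bases. The Hamp2 window lies inside the gene by the coordinates given further below (chr7:30922372-30924681), so its distances hold for the RefSeq start only. Of 32851 promoters of this length, 9.59% held GGCGCC, 7.02% held TTCNNNGAA and 0.368% held both. A promoter was found for 7 of the 10 genes (all but Trf, Slc40a1 and Bmp2), and apart from the hepcidin genes only a Tfrc promoter had a match, GGCGCC at 89 to 84 bases.
Hamp (chr7:30944030-30944279, minus strand): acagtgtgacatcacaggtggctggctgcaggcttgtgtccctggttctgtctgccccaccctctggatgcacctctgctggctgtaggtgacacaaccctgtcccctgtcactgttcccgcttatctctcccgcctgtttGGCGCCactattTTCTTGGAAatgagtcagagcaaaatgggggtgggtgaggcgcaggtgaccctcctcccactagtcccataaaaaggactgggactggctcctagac
Hamp2 (chr7:30924182-30924431, minus strand): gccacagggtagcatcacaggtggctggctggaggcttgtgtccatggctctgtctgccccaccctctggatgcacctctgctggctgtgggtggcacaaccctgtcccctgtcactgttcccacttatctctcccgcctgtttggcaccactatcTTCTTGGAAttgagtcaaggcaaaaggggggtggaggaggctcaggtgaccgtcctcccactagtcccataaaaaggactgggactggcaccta

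The 2 hepcidin genes are near copies, so the end of their coding sequences, which codes for the secreted peptide, is shown with the bases that differ in capitals. The coding sequences were 93.7% identical, and 14 of the last 78 coding bases differed. Of 380 stretches of 31 bases in the Hamp transcript, 128 (33.7%) were also found in Hamp2, so some reads could not be told apart and the low Hamp2 values are uncertain.
Hamp: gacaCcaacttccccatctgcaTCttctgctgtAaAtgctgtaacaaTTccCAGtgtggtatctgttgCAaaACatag
Hamp2: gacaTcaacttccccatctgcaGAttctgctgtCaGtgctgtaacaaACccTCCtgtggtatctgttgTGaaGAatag

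The authors' table held 53467 nuclei, 15166, 13339 and 16283 of them hepatocyte nuclei in L, CS and PH, and 2474, 1152 and 1809 endothelial nuclei. Samples held from 2709659 to 32104065 UMIs, the CS samples fewest, and the smallest endothelial sums came from 42 nuclei in CS and 29 in PH. The table calls cultured nuclei only cultured cells, so their clusters were divided here by marker genes. Endothelial nuclei of the PH samples carried a mean of 5907 CPM of 8 endothelial markers in sum, against 70.3 CPM in cultured hepatocyte nuclei. The same markers named the cultured clusters, so this contrast is built into the naming and is no check of it. A cluster of 158 nuclei that the table names biliary led with mesothelial markers and is called mesothelial here. Of the barcodes, 337 occurred in more than 1 pool. RNA of hepatocytes was found in endothelial, Kupffer and stellate nuclei: in L, Alb reached 32.5% of its hepatocyte level in endothelial nuclei. Barcodes of at most 100 UMIs, which hold free RNA, carried 121 to 393 CPM of Hamp and 31.9 to 75.3 CPM of Bmp6.

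In Liver the 10 genes divided by cell type. Levels between cell types are plain CPM (mean ± SD over samples) and are described without a test, because the types come from clusters of the same nuclei. The hormone, its sensor and the carrier were highest in hepatocytes: Hamp stood at 229 ± 104 CPM (n = 8) there and at 41.9 ± 16.7 in endothelial nuclei, Tfr2, the receptor that senses transferrin-bound iron, at 224 ± 45.5 and 28.7 ± 8.47, and Trf, which carries iron in plasma, at 1424 ± 460.3 and 346 ± 126. The endothelial values of these 3 genes amounted to 19.5%, 13.2% and 25.0% of the hepatocyte level, beside 18.1% (Cps1) to 39.0% (Apoa1) for the 6 hepatocyte markers. The shares of Hamp and Trf lay within that range and that of Tfr2 below it, and they cannot be told apart from free hepatocyte RNA. After hepatocytes, Hamp was highest in leukocytes (68.3 ± 40.6), Kupffer cells (48.1 ± 15.3), stellate cells (43.2 ± 19.7) and endothelium, an order in which the ranges of neighbours overlapped, those of hepatocytes and leukocytes included.

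Ferroportin was the macrophage gene of the set. Slc40a1 reached 1487 ± 358 CPM in Kupffer cells (n = 8), the resident macrophages that return iron from old red cells, and 191 ± 40.9 in stellate cells, with no overlap between them or with the next type. Endothelial (92.8 ± 15.9) and hepatocyte nuclei (67.6 ± 31.9) followed and overlapped each other. The 919 Kupffer nuclei among the 20024 of Liver held 28.8% of the Slc40a1 UMIs and 1.89% of all UMIs, while the more numerous hepatocytes held 62.0% and 89.3%. Free RNA held 69.2 to 123 CPM of Slc40a1 over the pools, and its part in the hepatocyte share was not tested. Kupffer nuclei also had the highest mean of Tfrc, which takes up transferrin, at 56.0 ± 15.5 CPM against 21.9 ± 2.07 in hepatocytes and 3.56 ± 2.48 in endothelium. The ferritin chains were spread over all types: Fth1 ranged from 56.9 (endothelial) to 131 CPM (Kupffer) among the types with 8 samples, and Ftl1 from 95.9 to 216, with ranges that overlapped between neighbours.

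The ligands were endothelial. Bmp2 stood at 214 ± 65.8 CPM in endothelial nuclei (n = 8), 20.1 ± 7.52 in stellate cells and 0.808 ± 0.306 in hepatocytes, and Bmp6 at 927 ± 230.1, 11.5 ± 4.01 and 3.18 ± 0.732. The second highest Bmp6 level was that of biliary nuclei, 255 CPM in the 1 sample with at least 10 of them, and the third that of mesothelial nuclei (85.8 ± 81.4, n = 4). Endothelial nuclei held 91.0% of all Bmp2 UMIs and 92.2% of all Bmp6 UMIs in L, and 90.9% and 88.6% in CS. In PH the shares were 51.7% and 47.8%, and hepatocyte nuclei held 38.9% of Bmp2 and 50.7% of Bmp6, beside 96.4% of all UMIs. Their mean levels in PH were 1.32 (Bmp2) and 13.8 plain CPM (Bmp6). Free RNA held 10.2 to 30.6 CPM of Bmp2 and 31.9 to 75.3 of Bmp6 over the 6 pools. The part of free RNA in these hepatocyte shares was not tested. For Slc40a1 the Kupffer share was 22.9% in CS and 0.915% in PH, where only 77 of 18394 nuclei were Kupffer nuclei.

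**Figure D1:**
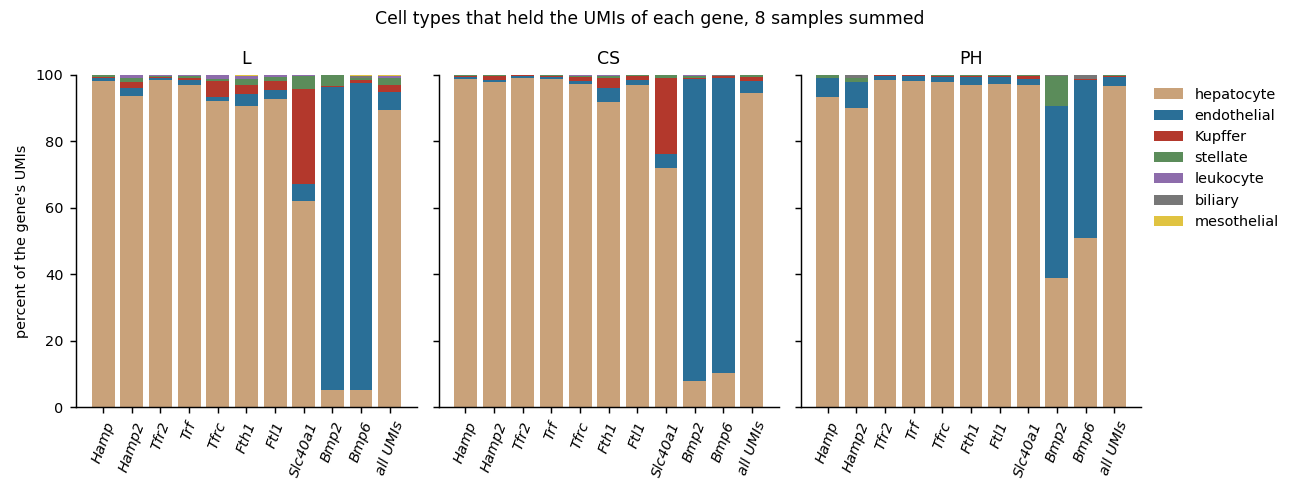
Stacked bars give, for each gene and for all UMIs, the percent of UMIs (y axis, 0 to 100) found in nuclei of each cell type, summed over 8 samples of L, CS and PH. Bmp2 and Bmp6 are mostly endothelial in L and CS and divided in PH between endothelium and hepatocytes, which hold 96.4% of all UMIs there. The Kupffer share of Slc40a1 (28.8% in L) is nearly gone in PH.

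Changes within hepatocyte nuclei were tested with edgeR on summed UMIs, with p-values adjusted over 26778 genes and called under 0.05. Levels in these comparisons are TMM-scaled CPM (scaled by trimmed means of M-values, which sets a typical gene level between samples), on the same scale as the fold changes: the scaling factors averaged 0.905 in L, 0.830 in CS and 1.34 in PH, so plain CPM of PH are higher than scaled ones. With plain totals the median gene would differ by 0.71 (PH against CS) and 0.66 (PH against L) on the log2 scale, in place of 0.02 and 0.10, and 80.2% and 75.7% of the called genes would be higher in PH, in place of 53.4% and 51.0%. Between CS and L, 4 of the 10 genes rose and none fell, where of all genes tested 8.15% higher and 14.2% lower were called. Of those calls 36.5% were higher in CS, against 19.9% with plain totals and 47.8% with RLE normalization. Between PH and CS, 2 rose and 6 fell (of all genes, 26.9% higher and 23.5% lower), and between PH and L, 3 rose and 4 fell (of all genes, 27.4% higher and 26.3% lower). The 3 comparisons share their samples, so they are given side by side. The groups did not overlap for 1 gene between CS and L, for 6 between PH and CS and for 6 between PH and L, beside 5.64%, 26.6% and 30.3% of all genes tested. The median log2 fold change of the 10 genes was 0.31 between CS and L, -0.97 between PH and CS and -0.11 between PH and L, beside 0.02, 0.02 and 0.10 over all genes.

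**Figure D2:**
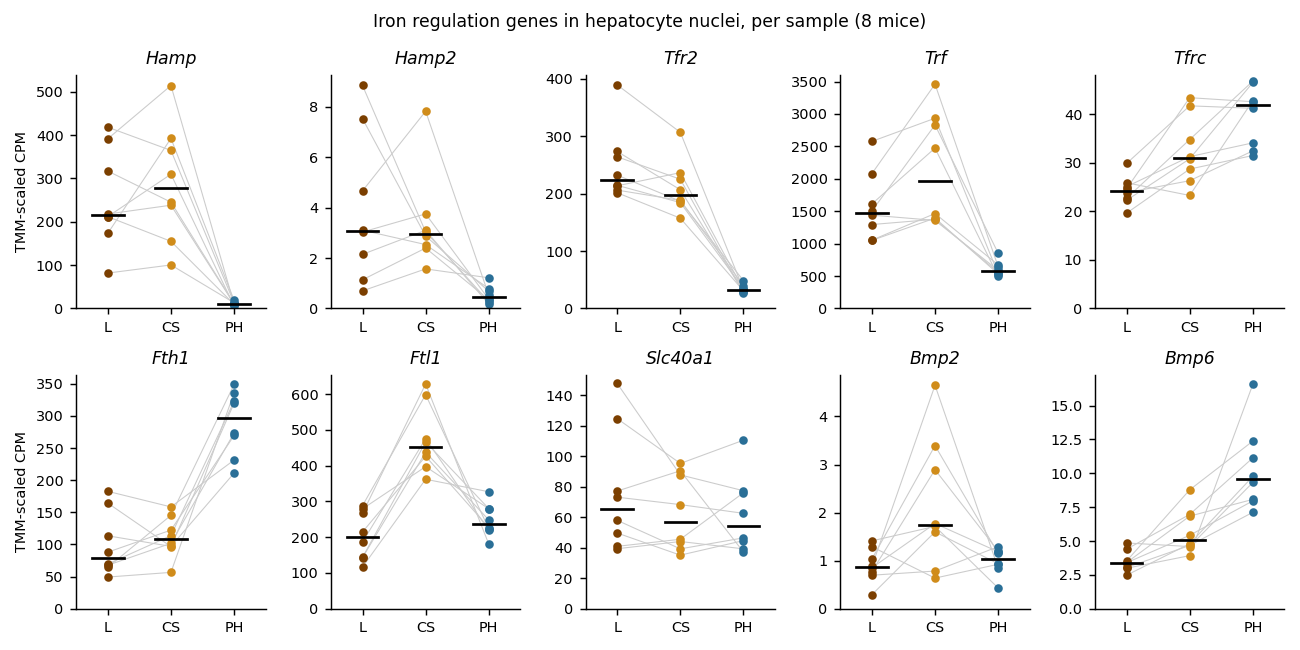
Each panel gives 1 gene in hepatocyte nuclei, with a point for each of 8 mice in L, CS and PH (y axis, TMM-scaled CPM from 0), grey lines joining the samples of a mouse and a black bar at the median. Hamp, Tfr2 and Trf sit lower in all PH samples than in any L or CS sample, while Fth1 sits higher.

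Hepcidin had no call between L and CS and fell in culture. Hamp ranged over 81.7 to 418 (median 215) scaled CPM in L, 100.4 to 514 (median 277) in CS and 5.61 to 18.8 (median 10.6) in PH. L and CS overlapped almost fully, and the highest PH sample lay below the lowest of both. Hamp fell by 22.3 times between L and PH (log2 fold change -4.48 ± 0.33 SE, adjusted p = 4.46e-13) and by 25.6 times between CS and PH (-4.68 ± 0.33, adjusted p = 2.68e-13). Between CS and L its log2 fold change was 0.20 ± 0.28 (adjusted p = 0.680). Hamp2, the second mouse hepcidin gene, was scarce at 0.698 to 8.84 (median 3.07) scaled CPM in L, 1.57 to 7.82 (median 2.95) in CS and 0.170 to 1.22 (median 0.445) in PH, and also fell, by 7.27 times between L and PH (adjusted p = 1.16e-06). With all sums thinned to equal totals that call was lost (log2 fold change -1.42, adjusted p = 0.213), as was the one against CS (-0.76, adjusted p = 0.574), and with the pool as a term the value was -3.80. Its L and PH samples overlapped, those of CS and PH did not. Among hepatocyte nuclei thinned to 1000 UMIs, 18.2% ± 7.01 (SD, n = 8) had a Hamp UMI in L, 16.4% ± 6.81 in CS and 1.82% ± 0.869 in PH, and the PH share was not above that of endothelial nuclei in PH, 2.66% ± 1.79, so that by this share Hamp in PH hepatocytes cannot be told apart from background. Without thinning the hepatocyte shares were 48.7%, 37.3% and 7.93%. Both genes lie on chromosome 7 (chr7:30942368-30944032 and chr7:30922372-30924681, minus strand) under the long non-coding gene Gm44662 of the opposite strand, which stood at 15.3 scaled CPM in L and 1.03 in PH (log2 fold change -3.90 ± 0.30, adjusted p = 1.80e-12).

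The iron sensor and the iron carrier fell with it. Tfr2 spanned 202 to 389 (median 223) scaled CPM in L, 157 to 307 (median 198) in CS and 27.1 to 48.6 (median 32.8) in PH. All PH samples were lower than all others, and Tfr2 fell by 7.25 times from L to PH (log2 fold change -2.86 ± 0.16, adjusted p = 7.73e-16), with -0.24 ± 0.15 between CS and L (adjusted p = 0.279). Trf spanned 1049.8 to 2576 (median 1471), 1358 to 3459 (median 1968) and 494 to 853 (median 573). It fell by 2.58 times from L to PH (-1.37 ± 0.21, adjusted p = 2.19e-06) and by 3.54 times from CS to PH (adjusted p = 1.87e-08), again without overlap, stood at 0.46 ± 0.21 in CS against L without a call (adjusted p = 0.130; called with edgeR's own filter, 0.54, adjusted p = 0.0476) and remained the most abundant of the 10 in UMIs, with 95466 in PH hepatocyte nuclei. The 6 hepatocyte markers summed to 11475 plain CPM in L and 3862 in PH; their part in the falls of Hamp, Tfr2 and Trf was not tested.

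Tfrc, the uptake receptor of most cells, went the other way. It spanned 19.6 to 29.9 (median 24.3) scaled CPM in L, 23.3 to 43.5 (median 31.1) in CS and 31.5 to 46.9 (median 41.9) in PH, and PH lay wholly above L. Tfrc rose by 1.64 times from L to PH (log2 fold change 0.71 ± 0.12, adjusted p = 9.87e-06) and by 1.34 times from L to CS (0.43 ± 0.12, adjusted p = 0.0122), while PH against CS missed the threshold (0.28 ± 0.12, adjusted p = 0.0565). These small changes depended on the settings. With the pool as a term the values were 0.35 (PH against L, adjusted p = 0.0723) and 0.18 (CS against L, adjusted p = 0.374). Without mouse 3 the CS against L call was lost (0.36, adjusted p = 0.0513), as with plain totals (0.29, adjusted p = 0.0519), whereas with plain totals, or with the mouse as a block (0.30, adjusted p = 0.0275), PH against CS was called. With thinned sums neither call held (adjusted p = 0.160 and 0.542), and with spliced UMIs alone that of CS against L did not (0.16, adjusted p = 0.448).

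The ferritin chains rose at different steps. Fth1, the heavy chain that oxidises iron for storage, spanned 49.3 to 183 (median 78.9) scaled CPM in L, 56.6 to 158 (median 108) in CS and 211 to 349 (median 297) in PH. The L and CS samples overlapped and all PH samples were higher, a rise of 2.89 times from L (log2 fold change 1.53 ± 0.23, adjusted p = 7.70e-07) and 2.59 times from CS (adjusted p = 4.86e-06). Within pool 2, Fth1 stood at 114 (L) and 211 (PH), and within pool 5 at 164 (L) and at 231 and 323 (PH). Free RNA held 395 to 660 CPM of Fth1 in pools 3, 4 and 5, where most PH samples lay, and 53.2 to 161 in pools 1, 2 and 6. Its part in this rise was not tested. Ftl1, the light chain, spanned 117 to 288 (median 200.6) in L, 362 to 628 (median 452) in CS and 181 to 327 (median 238) in PH. It rose by 2.31 times from L to CS, with no overlap (1.21 ± 0.17, adjusted p = 3.85e-06), fell by 1.91 times from CS to PH (-0.93 ± 0.17, adjusted p = 2.94e-05) and stood at 0.28 ± 0.17 in PH against L (adjusted p = 0.182). The scaling decided the last 2: with plain totals Ftl1 was -0.24 in PH against CS (adjusted p = 0.159) and 0.85 against L (adjusted p = 8.94e-06), and without mouse 4 it was 0.46 against L (adjusted p = 0.0272). Ferritin reads were mostly spliced (89.9% of Fth1 and 91.2% of Ftl1 UMIs in L), and the spliced share of all hepatocyte UMIs was 17.7% in L, 24.5% in CS and 26.0% in PH; with spliced UMIs alone the rise of Ftl1 from L to CS stood at 0.71 (adjusted p = 0.00493) and that of Fth1 from L to PH at 1.13 (adjusted p = 0.000204), and with unspliced UMIs alone at 2.24 and 4.17, the last from 16 UMIs in L and 347 in PH.

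Ferroportin showed no call in hepatocytes. Slc40a1 spanned 39.3 to 148 (median 65.5) scaled CPM in L, 35.1 to 95.2 (median 56.9) in CS and 37.2 to 110.4 (median 54.5) in PH, and all groups overlapped. Its log2 fold changes were -0.27 ± 0.27 (CS against L), -0.04 ± 0.27 (PH against CS) and -0.31 ± 0.27 (PH against L), with adjusted p of 0.552, 0.919 and 0.366. With plain totals PH against CS turned to 0.65 (adjusted p = 0.0282), near the shift of the median gene.

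The ligands were scarce in hepatocytes. Bmp6 rose from 2.48 to 4.86 (median 3.40) scaled CPM in L to 3.92 to 8.78 (median 5.11) in CS and 7.12 to 16.6 (median 9.55) in PH. PH lay wholly above L, with log2 fold changes of 0.67 ± 0.19 (CS against L, adjusted p = 0.00856), 0.87 ± 0.18 (PH against CS, adjusted p = 0.000110) and 1.54 ± 0.17 (PH against L, adjusted p = 5.09e-09). Its UMIs were 95.7% unspliced in L and 98.2% in PH. Spliced UMIs, of which there were 19 in L, 7 in CS and 27 in PH, gave -0.62 for CS against L, 0.64 for PH against CS and 0.02 for PH against L, none of them called (adjusted p = 0.608, 0.462 and 0.980). With thinned sums the calls of CS against L and PH against CS were lost (adjusted p = 0.615 and 0.155). Within Bmp6 (chr13:38345107-38500302, plus strand) lie parts of 4930579J19Rik and Txndc5 on the opposite strand. Bmp2, with 118, 107 and 153 hepatocyte UMIs in L, CS and PH, rose from L to CS (1.09 ± 0.31, adjusted p = 0.00924, and 0.0546 without mouse 1) and fell from CS to PH (-1.0 ± 0.30, adjusted p = 0.00577, and 0.381 with plain totals). Both Bmp2 calls were lost with thinned sums (adjusted p = 0.838 and 0.688) and with unspliced UMIs alone (0.0916 and 0.123), and that of CS against L with spliced UMIs alone (0.0549). The 8 endothelial markers summed to 37.5, 51.8 and 70.3 plain CPM in the hepatocyte nuclei of L, CS and PH, and 6 of the 8 rose from L to CS with a median log2 fold change of 0.56. Stellate markers summed to 29.3, 29.4 and 219. The part of both lists in the hepatocyte Bmp2 and Bmp6 values was not tested.

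Endothelial nuclei, which held most UMIs of the ligands in L, were tested in the same way over 18279 genes. Between CS and L, 3 of the 10 genes rose and none fell (of all genes, 2.03% higher and 1.87% lower). Between PH and CS, 2 rose and 4 fell (of all genes, 9.33% higher and 10.7% lower), and between PH and L, 3 rose and 3 fell (of all genes, 15.4% higher and 18.4% lower). The share of calls that were higher went from 52.1% to 69.0% with RLE normalization (CS against L), and with plain totals from 46.7% to 63.8% (PH against CS) and from 45.6% to 55.8% (PH against L). Bmp2 ranged over 173 to 365 (median 184) scaled CPM in L, 263 to 720.2 (median 465) in CS and 35.3 to 179 (median 48.4) in PH. The PH samples lay below all CS samples, and only the highest of them reached the L range. Bmp2 rose by 2.10 times from L to CS (log2 fold change 1.07 ± 0.22, adjusted p = 0.00114) and fell by 7.37 times from CS to PH (-2.88 ± 0.26, adjusted p = 1.24e-11), which left it 3.50 times lower in PH than in L (adjusted p = 1.35e-07). With spliced UMIs alone the rise was not called (0.69, adjusted p = 0.0889), and with all sums thinned to equal totals PH against L was not (-0.28, adjusted p = 0.854), while the rise then stood at 1.88 and the fall from CS at -2.16. Of the 1809 endothelial nuclei of PH, 76 lay in clusters that the table does not call cultured; with such nuclei left out of PH, and cultured ones out of L and CS, Bmp2 was -3.80 in PH against CS and -2.69 against L. Bmp6 was not called between CS and L: it ranged over 556 to 1225 (median 931) in L, 474 to 1491 (median 955) in CS and 272 to 698 (median 412) in PH, with overlap throughout. Its log2 fold change was 0.07 ± 0.20 between CS and L (adjusted p = 0.901), and it fell by 2.40 times from CS to PH (-1.26 ± 0.21, adjusted p = 7.18e-06) and by 2.28 times from L to PH (adjusted p = 9.07e-06). Spliced UMIs alone (71, 38 and 27 in L, CS and PH) called neither fall (-0.97 and -0.66, adjusted p = 0.108 and 0.194), and thinned sums did not call that from L (-0.49, adjusted p = 0.522). Among endothelial nuclei thinned to 1000 UMIs, 46.2% ± 6.37 (SD, n = 8) had a Bmp6 UMI in L, 48.3% ± 10.7 in CS and 28.3% ± 8.76 in PH, against 0.431% of hepatocyte nuclei in L. For Bmp2 the shares were 16.8%, 30.0% and 5.27%, against 0.118% in L hepatocytes; before thinning the L shares were 65.2% for Bmp6 and 38.8% for Bmp2. Thinning left out 162, 361 and 481 shallower endothelial nuclei of L, CS and PH. The 8 endothelial markers themselves summed to 12163, 10713 and 5907 plain CPM in endothelial nuclei of L, CS and PH, with 4 of the 8 lower and none higher in PH than in L; their part in the falls of Bmp2 and Bmp6 was not tested.

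Iron storage and uptake genes rose in endothelial nuclei too. Fth1 ranged over 21.1 to 110.5 (median 50.5) scaled CPM in L, 43.2 to 195 (median 100.2) in CS and 161 to 398 (median 319) in PH, and all PH samples exceeded all L samples, a rise of 4.98 times (log2 fold change 2.32 ± 0.23, adjusted p = 3.36e-11). Ftl1 rose by 2.43 times from L to PH (1.28 ± 0.22, adjusted p = 6.70e-06), its PH samples just above the L range of 45.1 to 152 at 152 to 334. With the pool as a term these rises were 1.52 and 0.69, both still called, and that of Ftl1 was not called with thinned sums (1.27, adjusted p = 0.165) or with its 17 (L) and 15 (PH) unspliced UMIs alone (1.25, adjusted p = 0.0862). From L to CS, Fth1 rose by 0.93 ± 0.24 and Ftl1 by 0.87 ± 0.23 (adjusted p = 0.0161 and 0.0167), but both calls were lost with the pool as a term (0.51 and 0.62, adjusted p = 0.303 and 0.117), with spliced UMIs alone, with thinned sums, and without mouse 1 (0.68 and 0.63) or mouse 3 (0.90 and 0.77); that of Fth1 was also lost without mouse 2 or mouse 8. Tfrc rested on few UMIs, 40 in L, 20 in CS and 93 in PH, and rose from 0 to 7.35 (median 2.89) scaled CPM in L to 8.95 to 35.0 (median 24.6) in PH without overlap (2.46 ± 0.32, adjusted p = 3.65e-08), a call lost with thinned sums (0.48, adjusted p = 0.858). The endothelial levels of Fth1, Ftl1 and Tfrc were 66.6%, 52.5% and 16.5% of the hepatocyte levels in L and 83.4%, 75.7% and 46.6% in PH, where the 6 hepatocyte markers stood at 56.2% to 128%. Free RNA held 395 to 659.8 CPM of Fth1 in pools 3, 4 and 5, which held 7 of the 8 PH samples, and 53.2 to 161 in pools 1, 2 and 6. The part of hepatocyte and free RNA in these 3 rises was not tested, and in PH the 3 levels cannot be told apart from it. Slc40a1 fell by 1.80 times from L to PH (-0.85 ± 0.21, adjusted p = 0.00109), with groups that overlapped; with all sums thinned to equal totals it stood at 0.15 (adjusted p = 0.952). Against CS its fall in PH (-0.74 ± 0.22, adjusted p = 0.0150) was lost without mouse 2 (-0.56) or mouse 5 (-0.46) and changed sign with thinned sums. Its plain endothelial means were 92.8 CPM in L and 62.3 in PH, beside 69.2 to 123 CPM in free RNA. The part of free RNA in these falls was not tested.

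The genes highest in hepatocytes were also counted in endothelial nuclei. Hamp ranged over 20.1 to 62.9 (median 43.1) scaled CPM in L and 0 to 51.0 (median 23.1) in PH and fell only between CS and PH (-1.06 ± 0.35, adjusted p = 0.0262), a call lost without mouse 1 (-0.98), mouse 4 (-0.78), mouse 5 (-1.0) or mouse 6 (-1.05) and with plain totals (adjusted p = 0.0799). Its endothelial level was 19.5% of the hepatocyte level in L and 164% ± 100.4 in PH (SD, range 0% to 326%), a spread that overlapped those of the hepatocyte markers Apob (56.2% ± 17.6) and Ttr (128% ± 66.1), the lowest and the highest of the 6 in PH. Tfr2 and Trf had no call in any comparison of endothelial nuclei, except that with the mouse as a block Tfr2 was called lower in PH than in CS (-0.98, adjusted p = 0.00842) and than in L (-0.69, adjusted p = 0.0315).

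**Figure D3:**
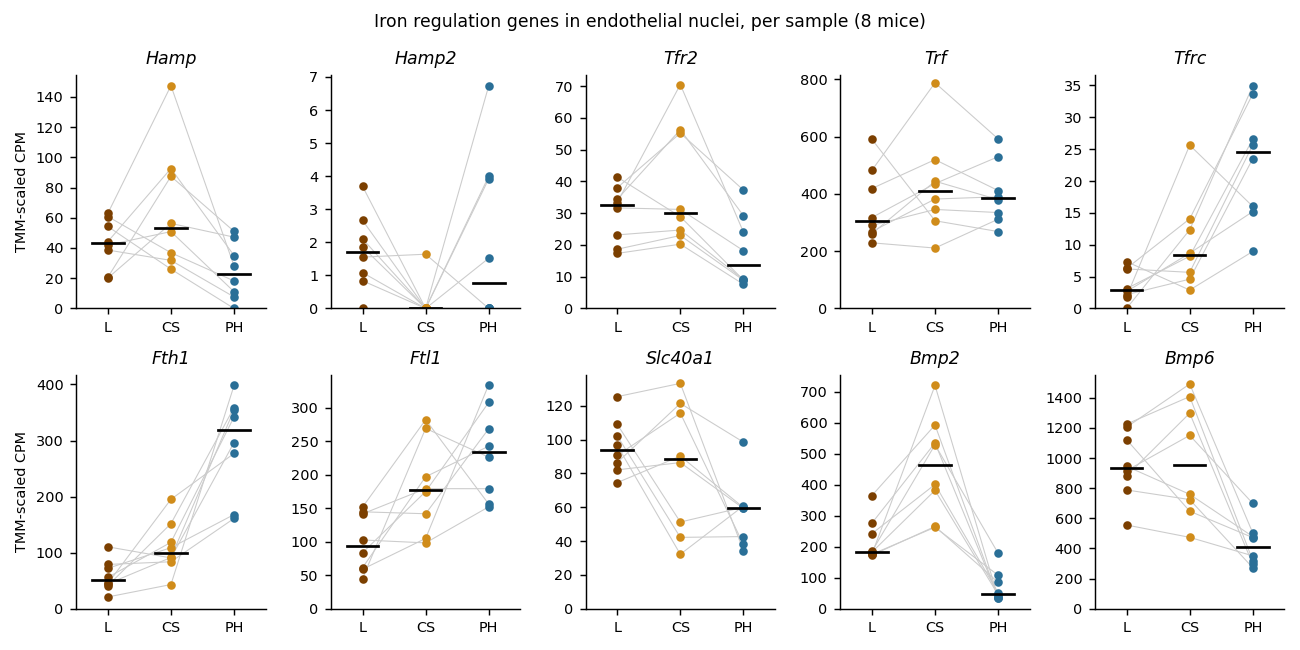
Each panel gives 1 gene in endothelial nuclei, with a point for each of 8 mice in L, CS and PH (y axis, TMM-scaled CPM from 0), grey lines joining the samples of a mouse and a black bar at the median. Bmp2 is highest in CS and lowest in PH, whereas Fth1 and Tfrc are highest in PH.

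Whether the change differed between the 2 cell types was tested as an interaction, with the sample as a block. Between CS and L, 0 of the 10 genes differed by edgeR, and 2 of them, Fth1 and Bmp6, had an unadjusted p under 0.05 (of all genes, the endothelial change was called 0.636% higher and 1.82% lower). Leaving out mouse 1, 2, 3, 5 or 8 called Bmp6, whose endothelial change was then lower than its hepatocyte change (-0.78 to -0.90), and leaving out mouse 7 called Fth1 (0.80). Between PH and CS, the endothelial change was higher for 6 and lower for 3 of the 10 (of all genes, 9.90% higher and 8.82% lower), and between PH and L it was higher for 7 and lower for 3 (of all genes, 11.6% higher and 13.5% lower). With plain totals the share of calls in which the endothelial change was higher went from 25.9% to 43.9% (CS against L), from 52.9% to 28.5% (PH against CS) and from 46.3% to 30.4% (PH against L). The ligands parted from L to PH: the endothelial change of Bmp6 was lower than the hepatocyte change by 2.85 ± 0.23 (adjusted p = 2.98e-20) and that of Bmp2 by 2.10 ± 0.32 (adjusted p = 3.27e-08) on the log2 scale. Slc40a1 differed in the same direction (-0.85 ± 0.25, adjusted p = 0.00527). The hepatocyte changes of Hamp, Tfr2 and Trf were lower than the endothelial ones by 3.61 ± 0.29, 2.09 ± 0.30 and 1.39 ± 0.19 (adjusted p = 2.05e-20, 6.05e-09 and 2.05e-09); that of Hamp2 rested on 12 endothelial UMIs in L. The endothelial changes of Tfrc, Ftl1 and Fth1 were higher than the hepatocyte ones by 1.66 ± 0.33, 0.87 ± 0.20 and 0.63 ± 0.21 (adjusted p = 1.75e-05, 0.000274 and 0.0145). The Fth1 difference was lost with plain totals (0.37, adjusted p = 0.205) and without mouse 3 (0.48). With spliced UMIs alone the calls of Bmp6 (-0.83, adjusted p = 0.398) and Fth1 were lost, with unspliced UMIs alone those of Ftl1 (0.61, adjusted p = 0.507) and Slc40a1 (-0.77, adjusted p = 0.0539), and with edgeR's own filter that of Slc40a1 (-0.66, adjusted p = 0.0664). With spliced UMIs alone the Hamp and Trf differences were 2.83 and 0.66, still called. The 6 hepatocyte markers summed to 2746 plain CPM in L and 2815 in PH in endothelial nuclei, and their part in the differences of Hamp, Tfr2, Trf, Tfrc, Ftl1 and Fth1 was not tested. In hepatocyte nuclei of PH, Bmp6 stood at 13.8 plain CPM and Bmp2 at 1.32. Free RNA held 31.9 to 75.3 CPM of Bmp6 and 10.2 to 30.6 of Bmp2, and its part in the differences of both was not tested.

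**Figure D4:**
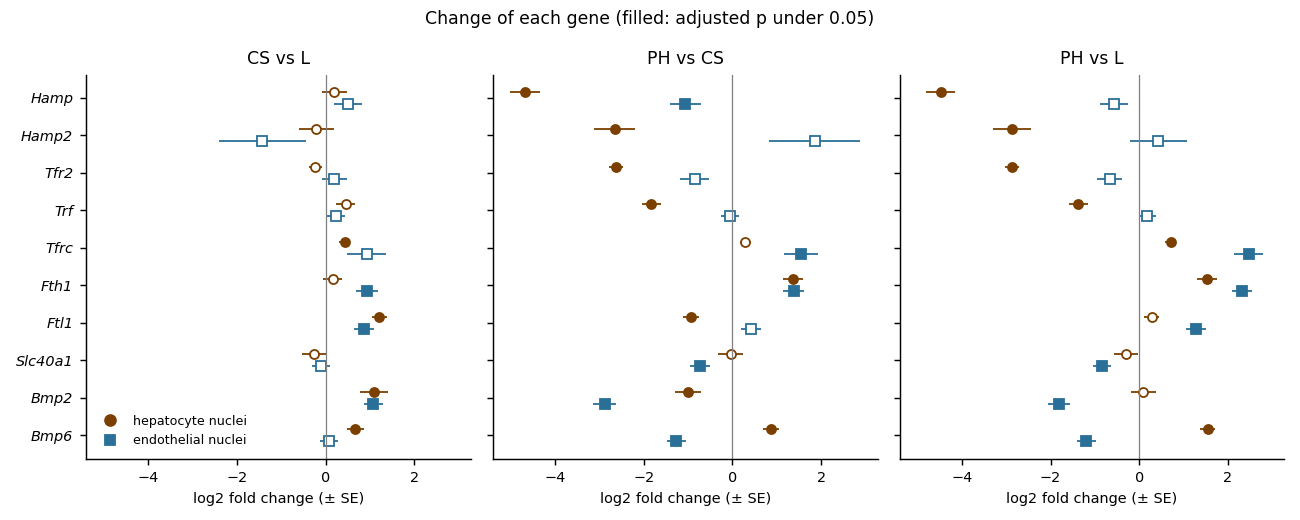
Log2 fold changes (x axis, ± SE) of the 10 genes in hepatocyte (brown circles) and endothelial nuclei (blue squares) for CS against L, PH against CS and PH against L; filled symbols have an adjusted p under 0.05. In PH against L, Bmp6 lies right of 0 in hepatocytes (1.54) and left of it in endothelium (-1.19), and Hamp lies furthest left in hepatocytes. The part of free RNA in the hepatocyte value of Bmp6 was not tested.

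Kupffer and stellate nuclei were compared between L and CS only. PH held 77 Kupffer nuclei, and its 192 stellate nuclei, more than the 148 of CS, were not tested. In Kupffer nuclei 0 of the 10 genes were called by edgeR (of all genes, 1.08% higher and 0.224% lower), and 3 had an unadjusted p under 0.05: Tfrc, Fth1 and Ftl1. Slc40a1 ranged over 991 to 2229 (median 1518) scaled CPM in L and 633 to 1899 (median 1650.0) in CS, overlapping groups with a log2 fold change of -0.09 ± 0.20 (adjusted p = 0.911). Ftl1 stood at 0.71 ± 0.22 (adjusted p = 0.100), and with the mouse as a block it was called (0.72, adjusted p = 0.0344). The 3 PH samples with at least 10 Kupffer nuclei gave, without a test, a plain mean of 443 CPM of Slc40a1 and 1238 of Fth1, from 37 and 105 UMIs, beside 1487 and 131 in L. These nuclei lie in clusters that the table names Kupffer and not cultured, and the paper reports Kupffer cells as absent from PH. Their 6 hepatocyte markers stood at 78.4% (Apob) to 255% (Ttr) of the hepatocyte level, beside 19.6% (Cps1) to 43.7% (Apoa1) in L. The part of hepatocyte RNA or of wrongly assigned nuclei was not tested. In stellate nuclei (7 samples in CS), 9 of the 10 genes could be tested and Slc40a1 was called lower in CS (of all genes, 0.903% higher and 2.29% lower, a split that turned from 28.3% of calls higher to 78.5% with plain totals), from 156 to 277 (median 197) in L to 26.0 to 219 (median 121) scaled CPM in CS with overlap (-0.96 ± 0.28, adjusted p = 0.0401). That call rested on 43 UMIs in CS and was lost without any 1 of mice 1, 2, 4, 6, 7 and 8 (-0.81 to -1.01), with RLE normalization, edgeR's own filter or plain totals (-0.59, -0.61 and -0.70) and with unspliced UMIs alone, and on simulated data 18.2% of the stellate calls were false.

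Position in the liver lobule was read from 10 pericentral and 10 periportal genes, none of them among the 10 iron genes, the hepatocyte nuclei of a sample were divided by that score into 3 parts of equal size, and the 2 outer parts were compared with the sample as a block. In L, 3 of the 10 genes were higher and 4 lower on the periportal side (of all genes, 9.18% higher and 10.4% lower). Ferroportin had the widest difference of the 10: Slc40a1 ranged over 25.1 to 99.0 (median 38.3) plain CPM on the pericentral side and 45.3 to 138 (median 74.4) on the periportal side, and was higher periportally in 8 of 8 mice (log2 fold change 0.77 ± 0.07, adjusted p = 2.17e-10). Tfrc was higher by 0.36 ± 0.08 in 8 of 8 mice (adjusted p = 0.000544) and Trf by 0.20 ± 0.05 in 6 of 8 (adjusted p = 0.00376). Lower on the periportal side were Ftl1, from 108 to 288 (median 222) to 102 to 205 (median 161) plain CPM and in 8 of 8 mice (-0.41 ± 0.06, adjusted p = 4.01e-07), Fth1 (-0.21 ± 0.07, adjusted p = 0.0184), Hamp (-0.25 ± 0.08, adjusted p = 0.0156) and Hamp2 (-0.65 ± 0.19, adjusted p = 0.0114). The ranges of the sides overlapped for every gene. The middle part was not compared, so a level highest there would not show. Over all hepatocyte nuclei of L the mean of Hamp was 229 plain CPM, beside 213 (pericentral) and 184 (periportal). In CS the same 3 means were 234, 248 and 187. The small differences depended on single mice: Hamp was not called without mouse 4 (-0.19), Hamp2 not without mouse 6 (-0.49), Trf not without mouse 5 (0.15) and Fth1 not without mouse 1 (-0.17), mouse 3 (-0.18) or mouse 5 (-0.20). With spliced UMIs alone Tfrc was not called (0.20, adjusted p = 0.333), with unspliced UMIs alone Trf was not (0.14, adjusted p = 0.0710), and with edgeR's own filter Hamp was not (-0.23, adjusted p = 0.0503).

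In CS, 1 gene was higher and 2 lower on the periportal side (of all genes, 6.44% higher and 8.07% lower). Slc40a1 was again higher in 8 of 8 mice (0.86 ± 0.10, adjusted p = 2.00e-11) and Hamp lower in 8 of 8 (-0.50 ± 0.09, adjusted p = 1.02e-05). Fth1 was lower by 0.27 ± 0.09 (adjusted p = 0.0345), a call lost without any 1 of mice 2, 4, 5, 7 and 8 (-0.26 to -0.21), with 2 parts in place of 3, with no filter, with plain totals, with nuclei of at least 2000 UMIs and with spliced UMIs alone. Hamp2, lower periportally in L, stood at -0.79 ± 0.30 in CS without a call (adjusted p = 0.0644), and was called lower with 2 parts in place of 3 (-0.79), with nuclei of at least 2000 UMIs (-1.03) and without mouse 3 (-0.91) or mouse 4 (-1.0). Ftl1, lower periportally in every mouse of L, stood at -0.06 ± 0.09 in CS (adjusted p = 0.750); the difference between L and CS was not tested. Tfr2, Bmp2 and Bmp6 had no call on either side in L or CS, though Tfr2 was higher periportally in 8 of 8 mice of L (0.08 ± 0.05, adjusted p = 0.306) and in 7 of 8 of CS (0.15 ± 0.09, adjusted p = 0.328). Nuclei on the pericentral side of L held more UMIs on average in each of the 8 samples, and the part of depth in these differences was not tested.

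**Figure D5:**
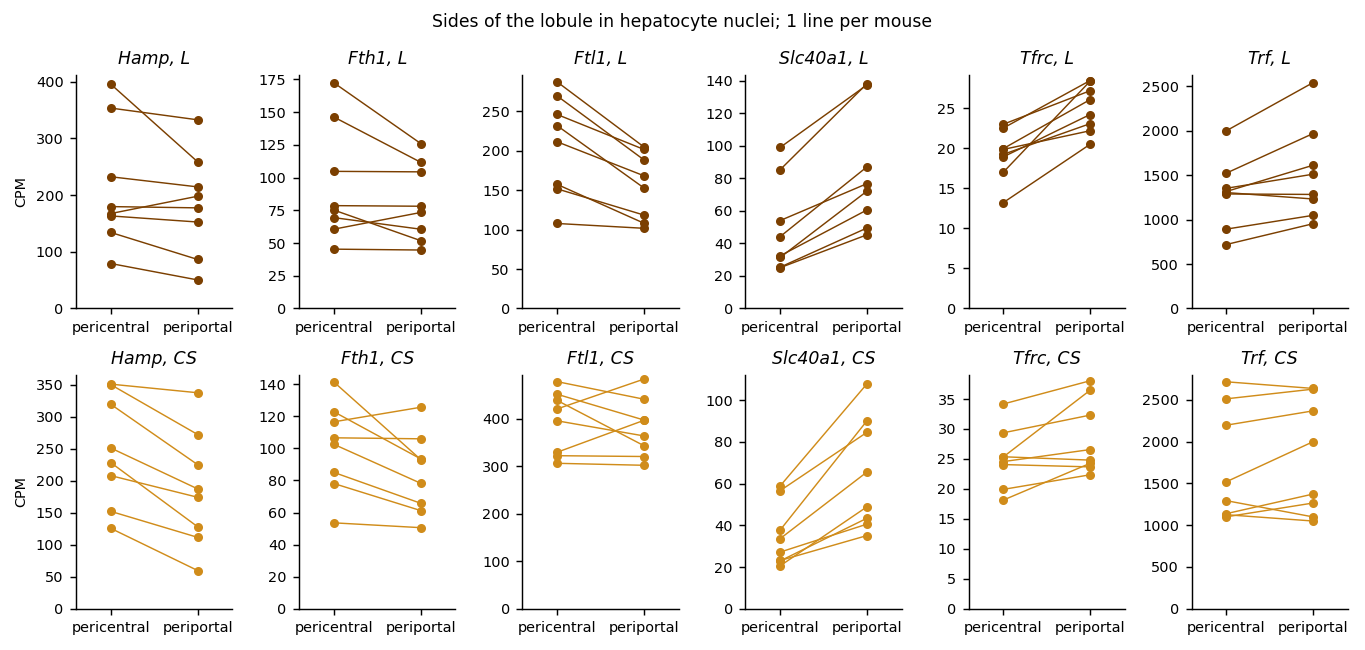
CPM (y axis, from 0) of 6 genes on the pericentral and the periportal side in hepatocyte nuclei of L (upper row) and CS (lower row), with a line for each of 8 mice. Slc40a1 rises towards the periportal side in all mice of both rows, and Ftl1 falls in all mice of L.

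Around the 10 genes, 69 genes of 7 lists of iron and hepcidin biology were read in hepatocyte nuclei, of which 68 could be tested. Between CS and L 11 rose and 9 fell, between PH and CS 20 rose and 33 fell, and between PH and L 16 rose and 31 fell. Of all genes tested, 8.15% higher and 14.2% lower were called between CS and L, 26.9% higher and 23.5% lower between PH and CS and 27.4% higher and 26.3% lower between PH and L, against which the counts of each list are to be read. The median log2 fold change of all the lists was 0.04, -0.39 and -0.26, beside 0.02, 0.02 and 0.10 over all genes. The split hung on the scaling: with plain totals 11 rose and 15 fell between CS and L, 31 rose and 22 fell between PH and CS, and 30 rose and 19 fell between PH and L, where the medians were -0.09, 0.31 and 0.31. With RLE normalization 15 rose and 8 fell between CS and L. The BMP target counts were the same with plain totals in all 3 comparisons, and of the genes named here as lower Hfe, Urod, Hmox2, Ncoa4, Iscu and Nfs1 had no call between PH and L with plain totals.

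Most of the listed targets of BMP signalling fell in culture, where hepcidin fell too. Of 7 target genes, 0 rose and 5 fell between L and PH (median log2 fold change -1.80): Smad6 (-4.07 ± 0.37, adjusted p = 5.32e-11) and Smad7 (-1.80 ± 0.23, adjusted p = 7.74e-08), inhibitors that the pathway switches on itself, Atoh8 (-2.74), Id2 (-2.49) and Id3 (-1.29). Id1, a common readout of the pathway, was not called (0.21 ± 0.44, adjusted p = 0.719), nor was Bambi. All 6 hepatocyte markers fell between L and PH as well (median log2 fold change -1.96). The part of such a general fall in the falls of the BMP, heme and other lists was not tested. Between L and CS 2 rose, Id2 (1.76 ± 0.27, adjusted p = 9.34e-06) and Id3 (1.35 ± 0.31, adjusted p = 0.00144), and none fell. Of 13 genes of the pathway itself, 3 rose and 7 fell between L and PH (6 and 3 with plain totals). Hjv, hemojuvelin, the BMP co-receptor of hepatocytes, fell from 42.9 to 2.81 scaled CPM (-3.94 ± 0.22, adjusted p = 6.35e-16). The protease Tmprss6, which cleaves hemojuvelin, fell by 1.79 on the log2 scale (adjusted p = 5.10e-12), the type I receptor Acvr1 fell by 1.48 (adjusted p = 1.30e-11) and Hfe, which binds the transferrin receptors, fell by 0.74 (adjusted p = 0.000253). Fkbp1a, which holds the type I receptors inactive, rose by 2.65 ± 0.14 (adjusted p = 3.40e-16), along with Neo1 (1.05) and Smad4 (0.38).

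Of 6 genes of the interleukin-6 route 2 rose and none fell between L and CS, where Hamp had no call. Socs3, the feedback inhibitor that STAT3 switches on, rose from 6.52 to 135 scaled CPM between L and CS (log2 fold change 4.37 ± 0.41, adjusted p = 1.93e-09) and stood at 4.51 in PH. Jak1, the kinase of the receptor, rose by 0.95 (adjusted p = 4.59e-06), while Il6ra, Il6st, Jak2 and Stat3 had no call, though RLE normalization (0.67) and DESeq2 (0.67) called Stat3 higher. Between PH and CS none of the 6 rose and 3 fell, Socs3, Jak1 and Stat3; with plain totals Stat3 had no call (0.02) and Jak2 and Il6st were called higher.

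Heme genes moved in both directions. Of 12 heme genes 3 rose and 8 fell between L and PH (4 and 6 with plain totals). Among those that fell were enzymes of heme synthesis, though Urod did not fall with plain totals: Alas1, the first and rate-limiting one in liver (-2.79 ± 0.54, adjusted p = 4.58e-05), Alad (-3.15), Cpox (-2.55), Fech, which inserts the iron (-1.45), Ppox (-0.94) and Urod (-0.77). Hmox1, the inducible heme oxygenase that frees iron from heme, rose from 3.65 scaled CPM in L to 34.7 in CS and 184 in PH (3.30 ± 0.37 and 5.67 ± 0.40 against L, adjusted p = 7.00e-08 and 2.56e-13). Blvra, which handles the product of heme breakdown, and the heme exporter Flvcr1 also rose from L to PH (0.44 and 1.28), while the constitutive oxygenase Hmox2 fell (-0.57).

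Uptake, sensing and export genes moved in both directions. Of 12 uptake genes 5 rose and 2 fell between L and PH (9 and 2 with plain totals). The heme transporter Slc48a1 (2.27), the ferric reductase Cybrd1 (2.15), the iron transporter Slc11a2 (0.94), the heme scavenger Hpx (1.05) and the reductase Steap2 (0.77) rose, and the scavenger receptor Lrp1 (-2.36) and the reductase Steap3 (-1.55) fell. Of the 11 tested sensing, storage and export genes 4 rose and 4 fell (5 and 2 with plain totals). The iron regulatory proteins Aco1 and Ireb2 fell by 1.18 and 1.22 on the log2 scale (adjusted p = 1.50e-10 and 2.02e-06), and Fbxl5, which marks iron regulatory proteins for breakdown, rose by 1.23 ± 0.12 (adjusted p = 2.50e-10). Lcn2, a siderophore-binding acute-phase protein, rose by 6.15 ± 0.75 (adjusted p = 2.78e-08) from 2.44 to 186 scaled CPM, and the ferroxidase Cp by 2.41; Ncoa4, which delivers ferritin to lysosomes, fell (-0.60). Of 7 mitochondrial genes 1 rose, the iron importer Slc25a37 (0.60), and 4 fell, against 3 and 1 with plain totals and 1 and 2 with RLE normalization or DESeq2, where Iscu and Nfs1, counted among the 4, had no call either.

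The share of unspliced RNA, which in nuclei is largely RNA still being made, differed by gene. Hamp was 50.2% unspliced in L hepatocyte nuclei, 42.9% in CS and 17.1% in PH, beside 74.5%, 66.7% and 64.3% of all UMIs. In endothelial nuclei, where Hamp cannot be told apart from free hepatocyte RNA, it was 25.1% unspliced in L and 13% in PH. The part of background RNA in the PH share of hepatocytes was not tested. Between L and PH the log2 fold change of Hamp was -5.95 with unspliced UMIs alone and -3.99 with spliced UMIs alone. Tfrc was 64.2% unspliced in L and 49.2% in PH, and Trf 73.5% and 58.0%. Fth1 was almost wholly without unspliced UMIs (0.117% in L), and Bmp6 in endothelial nuclei almost wholly unspliced (99.1%).

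Across mice, the Hamp level in hepatocyte nuclei was set against endothelial Bmp2 and Bmp6 and against hepatocyte Id1 and Smad7 of the same samples, within each sample type (log2 of CPM + 1, n = 8). In L, Hamp and endothelial Bmp6 gave r = 0.841 (two-sided exact permutation p = 0.00995, adjusted over 12 relations 0.119) and rho = 0.738 (exact p = 0.0458, adjusted 0.550), and r = 0.716 without the 2 samples farthest from the median of Bmp6. No relation of the 12 passed the adjustment; 1 had an unadjusted exact p under 0.05 by r and 1 by rho, in both cases this one. Pools held too few samples of a type for a value within a pool. In CS and PH the same pair gave r = 0.194 and -0.103 (exact permutation p = 0.639 and 0.813). The genes whose deviations from the sample type's mean followed Hamp most closely over the 24 hepatocyte sums, among 8741 genes, were Gm44662 (r = 0.886), which overlaps Hamp on the opposite strand, Rbm26 (0.879), Cers2 (0.759), Actg1 (0.735) and U2surp (0.731). Over the means of cell types and sample types (14 points, 15305 genes), the profile most like that of Bmp6 was that of Afap1l1 (r = 0.981), most like that of Bmp2 that of Adam23 (0.965), most like that of Tfr2 that of Habp2 (0.990), most like that of Trf that of Abca6 (0.978), most like that of Slc40a1 that of Adgre4 (0.952) and most like that of Hamp that of 5830473C10Rik (0.956). The points share libraries and cell types, so these are descriptions.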

How the data were processed

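Nuclei of 24 samples (8 mice, 3 sample types) were sequenced in 6 pools. The deposited matrices hold counts: the authors converted base calls with bcl2fastq 2.19.0 and counted UMIs with Salmon Alevin and Alevin-fry against spliced and unspliced GRCm38 transcripts, with no normalization; whether reads were counted by strand is not given in the sources used here. The authors assigned nuclei to samples by hashtag, removed doublets with scDblFinder and clustered the rest (a hashtag of the CS group written CD2 was taken here as that of CS mouse 2, the CS sample without another, so its values rest on that reading), and the deposited table of 53467 nuclei carries those labels and the UMI counts per nucleus. Hashtag matrices were not used here.

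UMIs of the 3 splicing states were summed per sample and cell type for sums of at least 10 nuclei. Cultured clusters, which the authors' labels do not type, took the name of a marker list whose summed CPM was over 20 times its median over clusters, a limit set after the data were seen, and were otherwise counted as hepatocytes. The 2 so named stood at 86.8 (endothelial) and 70.5 times (stellate), and the highest of the others, a cluster of 1279 nuclei, at 14.3 times (stellate). Genes with at least 10 counts over the samples were tested with edgeR 4.0.16 (R 4.3.3; TMM, quasi-likelihood test, all 3 sample types in 1 fit, Benjamini-Hochberg over all genes tested, threshold 0.05). Position scores used nuclei of at least 1000 UMIs. Relations used Pearson and Spearman tests by exact permutation. On simulated data 97.5% of 200 changed genes were recovered for hepatocytes (CS against L), 98.5% for endothelium (PH against L), 90.5% for Kupffer cells and 76.5% for stellate cells. The planted changes were all of 2 on the log2 scale, in genes above a count floor and with a fixed spread. These shares therefore do not hold for smaller changes or scarcer genes. Counting error is covered only by the spread between mice.

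The 10 genes are those of the question, the other genes named are members of 7 lists or the nearest profiles by correlation, and the genes and lists were chosen with earlier results of these data known. Some genes of the lists are not reported here by name. Samples of a mouse came from 1 liver. Same-mouse deviations of L and CS correlated at 0.337 to 0.847 (median 0.669, 8741 genes), those of L and PH at a median of 0.0347 and those of CS and PH at 0.0132. The mouse as a block was an alternative, as were the pool as a term, DESeq2 1.42.0, other normalizations and filters, spliced or unspliced UMIs alone, thinning, and leaving out each mouse.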

Additional observations from a re-analysis of the deposited data

Results flagged for a closer look

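The change between sample types differed between endothelial and hepatocyte nuclei by the interaction test. The endothelial levels of Hamp, Tfr2 and Trf in L, and of Tfrc, Ftl1 and Fth1 in PH, could not be told apart from hepatocyte or free RNA. For these genes the test cannot separate a change of endothelium from one of hepatocyte RNA found in its nuclei. The part of free RNA in the hepatocyte values of Bmp2 and Bmp6 was not tested. On the log2 scale, endothelial minus hepatocyte change from CS to PH was 3.36 for Hamp, 4.67 for Hamp2 (1 endothelial UMI in CS, that of mouse 1, without which the value was 9.01, so its size cannot be read), 1.66 for Tfr2, 1.64 for Trf, 1.19 for Tfrc, 1.26 for Ftl1, -0.90 for Slc40a1, -1.95 for Bmp2 and -2.12 for Bmp6. From L to PH it was 3.61 for Hamp, 2.71 for Hamp2, 2.09 for Tfr2, 1.39 for Trf, 1.66 for Tfrc, 0.63 for Fth1, 0.87 for Ftl1, -0.85 for Slc40a1, -2.10 for Bmp2 and -2.85 for Bmp6. From CS to PH, leaving out mouse 5 ended the Tfrc call (0.98) and leaving out mouse 6 or 7 that of Slc40a1 (-0.61 and -0.59).

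A sample stood apart from the others of its group, by Dixon's ratio, in 12 of 100 groups of samples examined, where chance gives about 1 in 20. Each was the highest of its group, in scaled CPM. In hepatocyte nuclei these were mouse 3 for Tfr2 in L (389, next 274) and mouse 2 for Hamp2 in CS (7.82, next 3.75), and in endothelial nuclei mouse 7 for Slc40a1 in PH (98.5, next 60.8, from 11 UMIs) and mouse 1 for Hamp2 in CS (1.64, from 1 UMI). In Kupffer nuclei they were mouse 4 for Hamp in CS (227, 15 UMIs), for Tfr2 in CS (106, 7 UMIs) and for Hamp2 in L (22.0, 6 UMIs), and mouse 6 for Hamp2 (33.3, 1 UMI) and Tfrc (100.0, 3 UMIs) in CS. In stellate nuclei of CS they were mouse 1 for Fth1 (277, 19 UMIs) and mouse 4 for Trf (1261, 100 UMIs) and Hamp2 (12.6, 1 UMI).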

How the results depend on the processing

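Of 1215 values of single genes and relations under other settings, 1115 kept their side of the threshold, 29 newly passed it, 67 no longer passed it and 4 turned with a call on 1 side or both. Of the 1115, 46 changed sign without a call under either setting. The 4 were Slc40a1 in endothelium with sums thinned to equal totals (0.071 for PH against CS and 0.15 against L), Bmp6 in hepatocytes with spliced UMIs alone (-0.62, CS against L, from 7 and 19 UMIs) and Slc40a1 in hepatocytes with plain totals (0.65, PH against CS). Counts of the 10 genes called moved as follows. With thinning they were 1 (CS against L, from 4) and 5 (PH against CS, from 8) in hepatocytes, and 1 (from 3), 2 (from 6) and 1 (PH against L, from 6) in endothelium, and 12 pathway genes were called between CS and L (from 20); fewer UMIs were left. With spliced UMIs alone they were 1 in hepatocytes and 0 in endothelium between CS and L. With unspliced UMIs alone they were 6 for the difference of changes between PH and L (from 10, with too few unspliced Fth1 UMIs for a test, 0 in L and 2 in PH in endothelium), 4 for the lobule sides in L (from 7) and 0 in stellate cells, and 5 genes were highest in hepatocytes in L (from 3). With the pool as a term 1 gene was called in endothelium between CS and L. In Kupffer cells 1 was called with RLE normalization, with edgeR's own filter and with plain totals; in stellate cells these gave 0, and no filter gave 2. The difference of changes between CS and L had 1 call with no filter or with plain totals. Of all genes tested, thinning left 741 calls of 5983, 6423 of 13500 and 6604 of 14379 in hepatocytes and 81 of 712, 406 of 3656 and 633 of 6181 in endothelium, and in stellate cells plain totals left 195 of 431. Spliced UMIs alone left 325, 1697 and 3421 calls in endothelium, 207 of 664, 2344 of 5059 and 3756 of 6783 for the difference of changes, 2393 of 4341 (L) and 1602 of 2880 (CS) for the lobule sides and 82 of 180 in Kupffer cells. The pool as a term left 334 (CS against L) and 3268 (PH against L) in endothelium, edgeR's own filter 3818 there (PH against L), 86 in Kupffer and 126 in stellate cells, unspliced UMIs alone 93 and 239 in the same types, RLE normalization 226 in stellate cells, and no filter gave 300 in Kupffer cells. The cause of these moves was not tested. The mouse as a block called Ftl1 in Kupffer cells (1 gene called) and, beyond the calls given with the results, changed no other call of the 10 genes. With plain totals Tfrc differed by 0.99 in hepatocytes of PH against CS (adjusted p = 4.77e-09).

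Leaving out each mouse gave 3 to 4, 8 to 9 and 7 to 8 called genes in hepatocytes (CS against L, PH against CS, PH against L), 1 to 3, 4 to 6 and 6 to 7 in endothelium, 0 to 1, 8 to 9 and 9 to 10 for the difference, 0 to 0 in Kupffer cells, 0 to 3 in stellate cells, 5 to 7 (L) and 2 to 4 (CS) for the lobule sides, 19 to 21, 47 to 52 and 43 to 46 pathway genes, and 0 to 1 relations. Depth limits the endothelial, Kupffer and stellate sums of CS and PH most, and a missing call there is not evidence of equal levels. Plain totals, and leaving out the authors' cluster 8, were added after the data were seen.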

Other observations

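Free RNA differed by pool: barcodes of at most 100 UMIs held 53.2 to 660 CPM of Fth1, 69.2 to 123 CPM of Slc40a1 and 10.2 to 30.6 CPM of Bmp2 over the 6 pools. In the 192 stellate nuclei of PH (plain CPM), Bmp2 stood at 62.8 and Slc40a1 at 47.1, beside 20.1 and 191 in L, without a test. In stellate nuclei the 6 hepatocyte markers stood at 20.8% (Cps1) to 33.0% (Apoa1) of the hepatocyte level in L. In PH they stood at 46.3% (Cps1) to 107% (Ttr), and their part in these values was not tested.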
